A study of Mus musculus with 36 samples.

Results

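Elastic fibre and microfibril genes were followed through postnatal life in the quadriceps muscle of 2 sarcoglycan-deficient mouse strains. The set was given as a list of 10 genes, *Eln*, *Fbn1*, *Fbn2*, *Fbln1*, *Fbln2*, *Fbln5*, *Mfap2*, *Mfap5*, *Ltbp1* and *Ltbp2*, and its members were found by the gene symbol of the probe annotation. The array measured 9 of the 10, each with 1 of its 8129 oligonucleotides. *Fbn1* was not analysed here, because no probe carried its symbol in the annotation used.

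BSG mice lack beta-sarcoglycan and GSG mice lack gamma-sarcoglycan, both subunits of the dystrophin-associated complex of the muscle fibre membrane. In each strain 2 mice were taken at each of 9 ages, which makes 36 mice in all. The ages were 1 and 2.5 weeks, every second week from 4 to 14, and 20 weeks. The RNA was compared on 36 arrays with 2 channels, laid out as 4 closed loops with 2 loops for each strain. A loop held 9 mice of different ages, each array carried a mouse in Cy5 and the mouse of the preceding age in Cy3, and the closing array carried the 1 week mouse in Cy5 and the 20 week mouse in Cy3. No healthy strain is analysed here, so change with postnatal growth and change with the muscular dystrophy cannot be told apart, and the strains can be compared only in their change since 1 week. Littermates were used for most time points, according to the study, so mice of the same age may share a litter. Unless stated otherwise, the p-values rest on the residual spread of the 36 array ratios. That spread holds array error as well as differences between mice. The arrays were treated as independent there, although each mouse lay on 2 of them. Since whole muscle was used, fewer cells of a type and less RNA per cell cannot be told apart.

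Elastic fibres give stretched tissue its recoil. They have a core of cross-linked elastin laid down on microfibrils, which are threads of fibrillin decorated with glycoproteins, and fibulins link the core, the microfibrils and the cell surface during assembly. In muscle they run in the connective tissue around fibres, in tendon and in vessel walls, and microfibrils also hold latent TGF-beta in the matrix through the latent TGF-beta binding proteins. Most elastin of a mammal is laid down around birth and during early growth.

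*Mfap2*, *Fbln5* and *Fbln1* are shown with their promoters because they are the members whose level lay below that of 1 week in every later mouse of both strains and for which a promoter was in the table used. The sequences are those of RefSeq on the GRCm38.p6 build, from 250 bases before to 50 after the start of the gene, and where a gene has several starts the first one listed was taken. Of the 10 genes, 7 were taken from the table. Members on 1 chromosome were left out of this step, whereas the background of all promoters was not filtered in this way. Capitals mark the GC box GGGCGG, the TATA box TATAAA and the SMAD motif CAGACA on either strand. No pair of these marks overlaps.
Mfap2, chr4:141010431-141010730, plus strand: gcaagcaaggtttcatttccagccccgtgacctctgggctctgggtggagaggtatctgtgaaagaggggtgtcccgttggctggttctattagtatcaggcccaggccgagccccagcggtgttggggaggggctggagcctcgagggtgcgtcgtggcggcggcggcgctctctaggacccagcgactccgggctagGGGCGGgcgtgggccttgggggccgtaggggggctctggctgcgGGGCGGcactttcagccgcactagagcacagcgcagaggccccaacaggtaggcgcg
Fbln5, chr12:101819070-101819369, minus strand: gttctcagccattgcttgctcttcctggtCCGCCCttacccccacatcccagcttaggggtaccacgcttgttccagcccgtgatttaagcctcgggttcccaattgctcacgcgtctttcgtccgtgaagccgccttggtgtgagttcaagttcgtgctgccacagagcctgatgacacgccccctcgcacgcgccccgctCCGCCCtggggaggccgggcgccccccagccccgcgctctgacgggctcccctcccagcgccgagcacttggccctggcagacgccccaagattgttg
Fbln1, chr15:85205699-85205998, plus strand: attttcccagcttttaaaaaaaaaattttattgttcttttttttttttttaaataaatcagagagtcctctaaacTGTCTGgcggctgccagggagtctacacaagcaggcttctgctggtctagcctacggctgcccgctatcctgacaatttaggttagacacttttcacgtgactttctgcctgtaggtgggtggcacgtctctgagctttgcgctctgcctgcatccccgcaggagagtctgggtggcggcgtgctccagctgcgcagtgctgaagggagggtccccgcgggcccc
The promoters of *Mfap2* and *Fbln5* each held 2 GC boxes, and that of *Fbln1* held none but 1 SMAD motif. The GC content was 68.0% for *Mfap2*, 65.7% for *Fbln5* and 51.7% for *Fbln1*, against a median of 52.7% over 27025 promoters. Among the 7 genes, 5 held the GC box, 0 the TATA box and 1 the SMAD motif, against 35.9%, 14.2% and 21.0% of all promoters. These matches are a description of letters and say nothing about binding.

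Over all arrays, duplicate spots of an oligonucleotide correlated with a median of 0.543 per array and a range of -0.096 to 0.765, and 9 arrays lay under 0.3. *Dlk1*, an imprinted gene that is high in newborn muscle, had a difference of 20 weeks minus 1 week of -3.05 in BSG and -3.54 in GSG on the log2 scale, a fall under the direction taken for the ratios (limma, adjusted p = 1.68e-08 and 6.25e-10). Of 9 measured genes of newborn muscle, 4 were lower at 20 weeks in each strain and 0 higher, against 0.849% of all oligonucleotides called lower in BSG and 3.03% in GSG. That direction, Cy5 over Cy3, is likely but was not stated. Levels below are log2 values relative to the 1 week mouse of the same loop, fitted over the 9 arrays of that loop, so 1 means a doubling. Each mouse level is given as measured in loop 1 and loop 2. Because all ages of a loop are set against 1 and the same 1 week mouse, the ages of a loop are not independent of each other.

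Between 1 and 20 weeks the microfibril genes *Mfap2* and *Mfap5* fell in both strains, *Fbn2* fell in BSG, and *Fbln1* and *Fbln5* fell in GSG. No member rose. In BSG, 3 of the 9 members were lower at 20 weeks, against 0.849% of all oligonucleotides called lower and 0.431% called higher. In GSG, 4 of the 9 were lower, against 3.03% called lower and 0.713% called higher. The threshold was an adjusted p of 0.05 over 8129 oligonucleotides (limma). The median of the 9 members was -0.70 in BSG and -0.38 in GSG, against -0.02 and -0.01 over all oligonucleotides. In each strain 7 of the 9 estimates were below 0, against 53.2% of all oligonucleotides in BSG and 51.9% in GSG. These calls rest on 2 mice per age. With 1 level per mouse and the loop as a fixed replicate block, 0 members were called in BSG and 2 in GSG, *Fbln1* and *Mfap5* (limma, adjusted p = 0.0458 and 0.0421), against 0.16% and 1.41% of all oligonucleotides called lower in that fit.

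**Figure D1:**
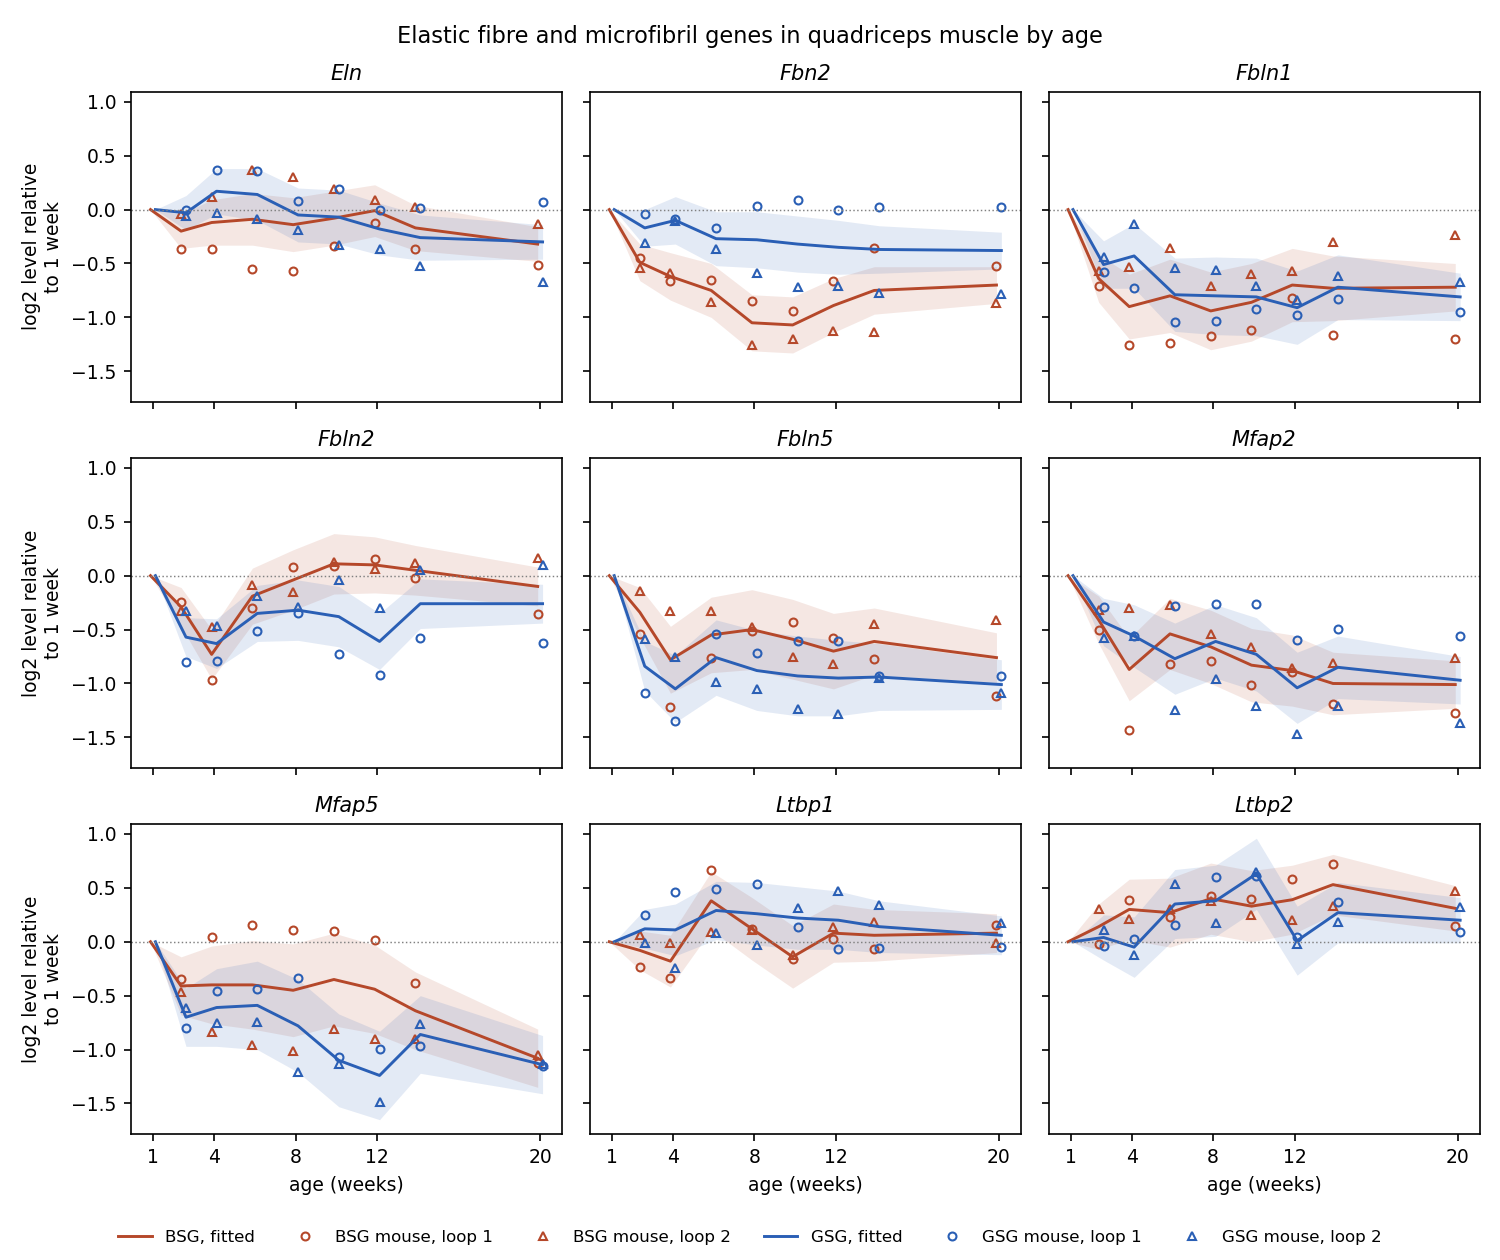
Fitted log2 level relative to 1 week (vertical axis) by age in weeks (horizontal axis) for the 9 measured members. Lines are the fitted ages of BSG and GSG with 1 standard error shaded, circles and triangles are the mice of loop 1 and loop 2, and all later mice of both strains lie below 0 for *Fbln1*, *Fbln5* and *Mfap2*.

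The 2 microfibril-associated glycoproteins fell in both strains. *Mfap2* encodes MAGP-1, a small glycoprotein that binds fibrillin. At 20 weeks its level was -1.27 and -0.76 in the BSG mice and -0.56 and -1.37 in the GSG mice. All 16 later mice of each strain lay below their 1 week mouse, with a lowest, median and highest level of -1.43, -0.80 and -0.27 in BSG and of -1.47, -0.57 and -0.26 in GSG. The fitted difference of 20 weeks minus 1 week was -1.01 ± 0.22 (SE, 2 mice per age) in BSG, a fold of 0.495 (limma, adjusted p = 0.0191). In GSG it was -0.97 ± 0.22, a fold of 0.511 (limma, adjusted p = 0.0102). Part of the fall stood at 2.5 weeks, where the estimates were -0.41 ± 0.22 in BSG and -0.43 ± 0.22 in GSG. The call depended on single loops. In BSG the estimate without loop 1 of BSG was -0.76 (limma, adjusted p = 1) and without loop 1 of GSG -1.01 (limma, adjusted p = 0.0515), and in GSG the estimate without loop 2 of GSG was -0.56 (limma, adjusted p = 0.664).

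*Mfap5* encodes MAGP-2, which binds fibrillin too and in other systems Notch ligands. Its levels at 20 weeks were the most even of all members, -1.12 and -1.05 in the BSG mice and -1.15 and -1.13 in the GSG mice. At the ages before that, loop 1 of BSG stood apart from the other loops. In loop 1 of BSG the mice of 4, 6, 8, 10 and 12 weeks stood at 0.04, 0.16, 0.11, 0.10 and 0.02, level with 1 week, whereas in loop 2 of BSG they stood at -0.84, -0.96, -1.01, -0.81 and -0.90. So 11 of 16 later BSG mice and 16 of 16 later GSG mice were below 1 week. The difference of 20 weeks minus 1 week was -1.08 ± 0.27 in BSG, a fold of 0.472 (limma, adjusted p = 0.0449), and -1.14 ± 0.27 in GSG, a fold of 0.453 (limma, adjusted p = 0.0162). The lowest estimate in GSG was -1.24 ± 0.41 at 12 weeks. The estimates barely moved when a loop was left out, -1.05 to -1.12 in BSG and -1.13 to -1.15 in GSG, but the adjusted p rose above 0.05 without any 1 of the 4 loops, to 0.0546 at the least in BSG and to 0.0667 at the least in GSG (limma).

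Among the fibrillins, *Fbn2* encodes fibrillin-2, the form typical of fetal and early postnatal microfibrils. In the BSG mice it stood at -0.52 and -0.87 at 20 weeks, and in the GSG mice at 0.02 and -0.78. All 16 later BSG mice were below 1 week, from -1.26 to -0.36 with a median of -0.76, and the lowest estimate was -1.07 ± 0.26 at 10 weeks. In GSG, 11 of 16 were below, and the mice of loop 1 from 8 weeks on stayed between 0 and 0.09. The fall between 1 and 20 weeks was called in BSG, -0.70 ± 0.17 (limma, adjusted p = 0.034), and was -0.38 ± 0.17 in GSG (limma, adjusted p = 0.262). BSG and GSG are not shown to differ by this, since the BSG minus GSG difference of -0.32 had a 95% interval from -0.80 to 0.17. Without loop 1 or loop 2 of BSG the BSG estimate was -0.87 or -0.52 (limma, adjusted p = 1 and 0.296), and without loop 1 or loop 2 of GSG it stayed at -0.70 (limma, adjusted p = 0.0761 and 0.076). The 2 spots of *Fbn2* correlated with 0.31 over the 36 arrays, close to the median of 0.322 over all oligonucleotides. On the closing array of loop 2 of GSG they gave -1.62 and 0.06 for 20 weeks over 1 week.

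The fibulins did not all follow the same course. *Fbln5* encodes fibulin-5, which brings elastin to microfibrils and is required for elastic fibre assembly in mice. At 20 weeks it stood at -1.12 and -0.41 in the BSG mice and at -0.93 and -1.09 in the GSG mice. All 16 later mice of each strain were below 1 week, with medians of -0.53 in BSG and -0.94 in GSG. At 4 weeks the BSG mice stood at -1.22 and -0.33 and the GSG mice at -1.35 and -0.75, with estimates of -0.78 ± 0.31 in BSG and -1.05 ± 0.31 in GSG. At 20 weeks the estimate was -0.76 ± 0.23 in BSG (limma, adjusted p = 0.11) and -1.01 ± 0.23 in GSG, a fold of 0.497 (limma, adjusted p = 0.0119). Without loop 2 of GSG the GSG estimate was -0.93 (limma, adjusted p = 0.305).

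*Fbln1* encodes fibulin-1, found in the elastin core and in basement membranes. At 20 weeks it stood at -1.20 and -0.24 in the BSG mice and at -0.95 and -0.67 in the GSG mice. Again all 16 later mice of each strain were below 1 week, from -1.26 to -0.24 in BSG and from -1.04 to -0.13 in GSG. The estimates at 2.5 weeks were already -0.64 ± 0.22 in BSG and -0.51 ± 0.22 in GSG. The difference of 20 weeks minus 1 week was -0.72 ± 0.22 in BSG (limma, adjusted p = 0.125) and -0.81 ± 0.22 in GSG, a fold of 0.571 (limma, adjusted p = 0.0439). The GSG call was lost without any 1 of the loops, at estimates of -0.67 to -0.95 (limma, adjusted p from 0.0601 to 0.51). The BSG estimate passed without loop 2 of BSG, at -1.20 (limma, adjusted p = 0.0406).

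*Fbln2*, for fibulin-2 of vessel walls and basement membranes, had its lowest estimates at 4 weeks, -0.73 ± 0.23 in BSG and -0.63 ± 0.23 in GSG. In BSG the later mice then stood near 1 week, and at 10 weeks both were above it, at 0.09 and 0.13. In GSG the mice of loop 1 stayed low, at -0.73, -0.92, -0.58 and -0.62 at 10, 12, 14 and 20 weeks, and those of loop 2 stood at -0.04, -0.30, 0.05 and 0.10. At 20 weeks the estimates were -0.10 ± 0.18 in BSG and -0.26 ± 0.18 in GSG (limma, adjusted p = 0.963 and 0.594). The mice of each strain lay on both sides of 1 week at that age.

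*Eln* encodes elastin itself and did not pass the test in either strain. At 20 weeks the BSG mice stood at -0.51 and -0.13 and the GSG mice at 0.07 and -0.67. Of the 16 later mice, 10 were below 1 week in BSG and 8 in GSG. The estimate was -0.32 ± 0.16 in BSG and -0.30 ± 0.16 in GSG (limma, adjusted p = 0.435 and 0.405), and the highest was 0.17 ± 0.21 at 4 weeks in GSG. The mice lay on both sides of 1 week in GSG, and the 2 spots of *Eln* correlated with 0.21 over the 36 arrays.

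Neither of the 2 latent TGF-beta binding proteins was called. LTBP-1 ties latent TGF-beta to fibrillin microfibrils, whereas LTBP-2 binds fibrillin but not latent TGF-beta. *Ltbp2* was below 1 week in 1 of 16 later BSG mice and in 3 of 16 later GSG mice. Its medians over the later mice were 0.32 in BSG and 0.17 in GSG, and its highest estimates were 0.53 ± 0.28 at 14 weeks in BSG and 0.63 ± 0.33 at 10 weeks in GSG. At 20 weeks the estimate was 0.31 ± 0.21 in BSG and 0.20 ± 0.21 in GSG (limma, adjusted p = 0.671 and 0.789). *Ltbp1* was at 0.16 and -0.01 in the BSG mice of 20 weeks and at -0.05 and 0.17 in the GSG mice, and 7 of 16 later mice in BSG and 6 of 16 in GSG were below 1 week. Its 20 week estimates were 0.08 ± 0.18 in BSG and 0.06 ± 0.18 in GSG (limma, adjusted p = 0.971 and 0.963). The 2 spots correlated with 0.34 for *Ltbp2* and with 0.16 for *Ltbp1*, against the median of 0.322 over all oligonucleotides.

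Each 1 week mouse lay on 2 arrays with opposite dyes, in Cy3 against the 2.5 week mouse and in Cy5 against the 20 week mouse of its loop. *Fbln1*, *Fbln5*, *Mfap2* and *Mfap5* were brighter in the 1 week mouse on all 8 of these arrays, so in both dyes and all 4 loops. This held for 4 of 9 members, against 2.69% of all oligonucleotides. For *Mfap5* the closing arrays gave 20 over 1 week ratios of -1.25 and -1.18 for BSG and -1.51 and -1.40 for GSG. The first arrays gave 2.5 over 1 week ratios of -0.22 and -0.34 for BSG and -0.44 and -0.34 for GSG. On the same closing arrays *Mfap2* gave -1.27 and -0.79 for BSG and -0.63 and -1.55 for GSG. *Fbn2* was brighter in the 1 week mouse on 7 of 8 arrays, *Fbln2* on 6, *Eln* on 5, and *Ltbp1* and *Ltbp2* on 2 each.

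**Figure D2:**
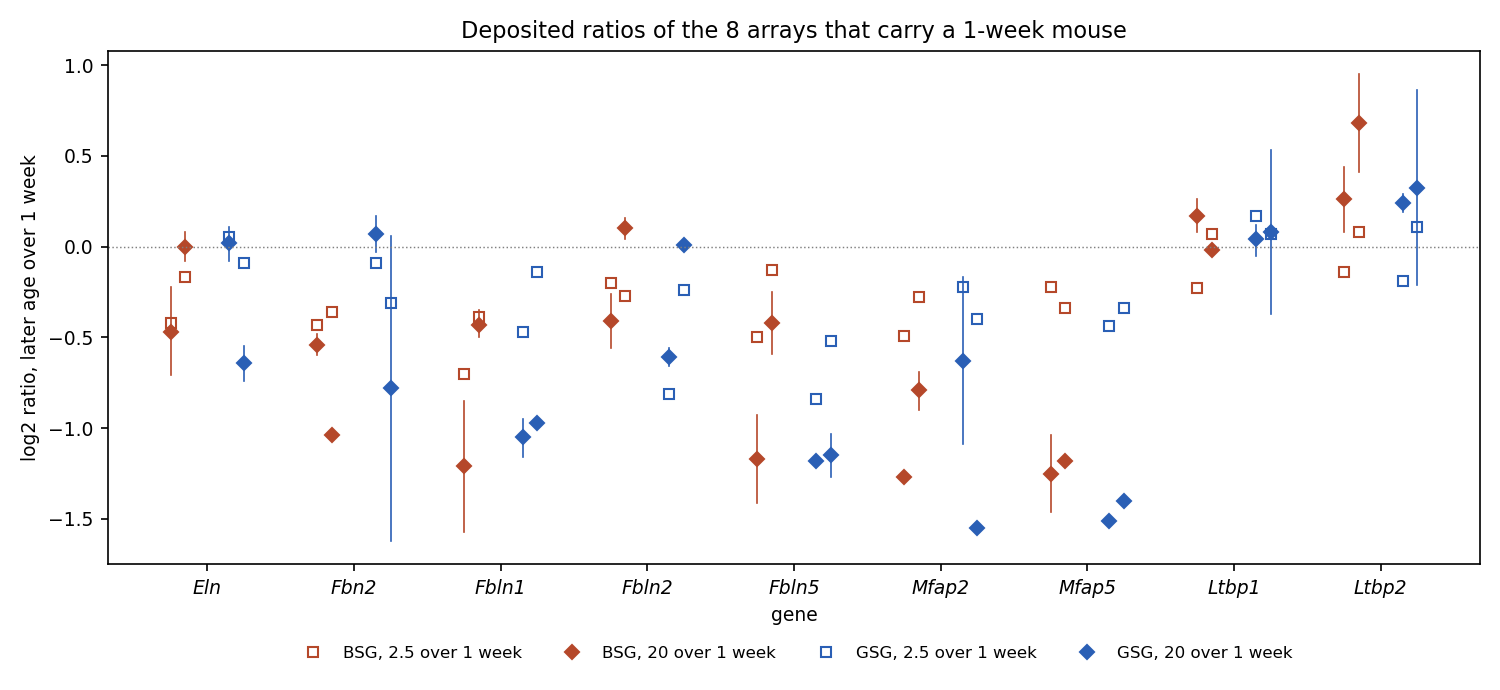
Deposited log2 ratios of the later age over 1 week (vertical axis) on the 8 arrays that carry a 1 week mouse, by gene (horizontal axis). Squares are the 2.5 over 1 week arrays and diamonds the 20 over 1 week arrays of BSG and GSG, 2 loops each, and thin lines join the 2 spots of the 20 week arrays. *Mfap5*, *Mfap2*, *Fbln5* and *Fbln1* lie below 0 throughout.

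The 20 week estimate of a loop is 0.889 times the 20 over 1 week ratio of its closing array plus 0.111 times the sum of the other 8 ratios. For *Mfap5* the sum of those 8 ratios was -0.05 and -0.02 in the BSG loops and 1.71 and 1 in the GSG loops, where the closing arrays gave the values above. *Mfap5* had a mean offset towards Cy5 of 0.22 per array when a dye term was fitted (limma, adjusted p = 0.0018). *Fbln1* had one of 0.15 and *Ltbp2* one of -0.12 (limma, adjusted p = 0.0144 and 0.0493), as did 36.1% of all oligonucleotides in 1 direction or the other. The offsets of *Mfap2*, *Fbln5* and *Fbn2* were 0.07, 0.09 and 0.04 and were not called (limma, adjusted p = 0.302, 0.182 and 0.495). An offset that is equal on the 9 arrays of a closed loop does not change the age estimates. With the dye term 4 members were lower in each strain, *Fbln1* being the additional one in BSG (limma, adjusted p = 0.0367), and more of all oligonucleotides were lower too, 1.83% in BSG and 4.37% in GSG. Over the chain of 8 arrays, 12 of 18 sums in BSG and 9 of 18 in GSG were below 0, against 13 and 11 of 18 ratios on the closing arrays. In BSG the chain sums were -1.23 and -0.46 for *Mfap2* and -0.37 and 0.53 for *Fbn2*. In GSG they were -0.03 and 0.05 for *Mfap2*, 1.09 and -0.58 for *Fbln5* and -0.07 and 1.76 for *Fbln1*. A chain sum carries the error and any dye offset of 8 arrays. The calls at 20 weeks thus rest mainly on the closing arrays, above all in GSG.

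Adult mice were also set against young mice, as the mean of 8 to 20 weeks minus the mean of 1, 2.5 and 4 weeks. None of the 9 members passed in BSG, where 0.0123% of all oligonucleotides did, and none in GSG, where 0.148% did (limma, 1 and 3 members at an unadjusted p below 0.05, smallest adjusted p = 0.845 and 0.71). The differences were -0.52 ± 0.17 for *Fbn2*, -0.45 ± 0.23 for *Mfap2* and 0.36 ± 0.18 for *Fbln2* in BSG. In GSG they were -0.59 ± 0.28 for *Mfap5*, -0.51 ± 0.23 for *Mfap2* and -0.50 ± 0.24 for *Fbln1*. With 1 level per mouse these 6 differences passed, 3 per strain, where 5.34% of all oligonucleotides passed in BSG and 9.13% in GSG (limma, adjusted p = 0.012, 0.0446, 0.0391, 0.014, 0.0167 and 0.00524), in a fit that treats the levels of a loop as independent although neighbouring ages share arrays. In the F test over all 8 later ages, 0 members passed in BSG and 0 in GSG, against 0.0984% and 0.59% of all oligonucleotides (limma, 3 and 4 members at an unadjusted p below 0.05, smallest adjusted p = 0.537 and 0.228).

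No difference between the strains was called for any member. The temporal Hotelling test with second order polynomials, the non-temporal test and the limma contrast of adult against young called 0 of 9 members, against 0% of all oligonucleotides in each, and 0 members had an unadjusted p below 0.05. The limma F test over the 8 ages and the difference in the change from 1 to 20 weeks also called 0 members and 0% of all oligonucleotides, again with 0 members at an unadjusted p below 0.05. The temporal test gave its smallest p among the members for *Fbn2*, 0.12 before adjustment (adjusted p = 1). BSG minus GSG differences in the change from 1 to 20 weeks lay between -0.32 for *Fbn2* and 0.24 for *Fbln5*. The 95% interval was narrowest for *Eln*, -0.48 to 0.44, and widest for *Mfap5*, -0.73 to 0.85, so differences of these sizes could not be detected. For *Mfap2*, with a difference of -0.05, the interval ran from -0.68 to 0.59.

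**Figure D3:**
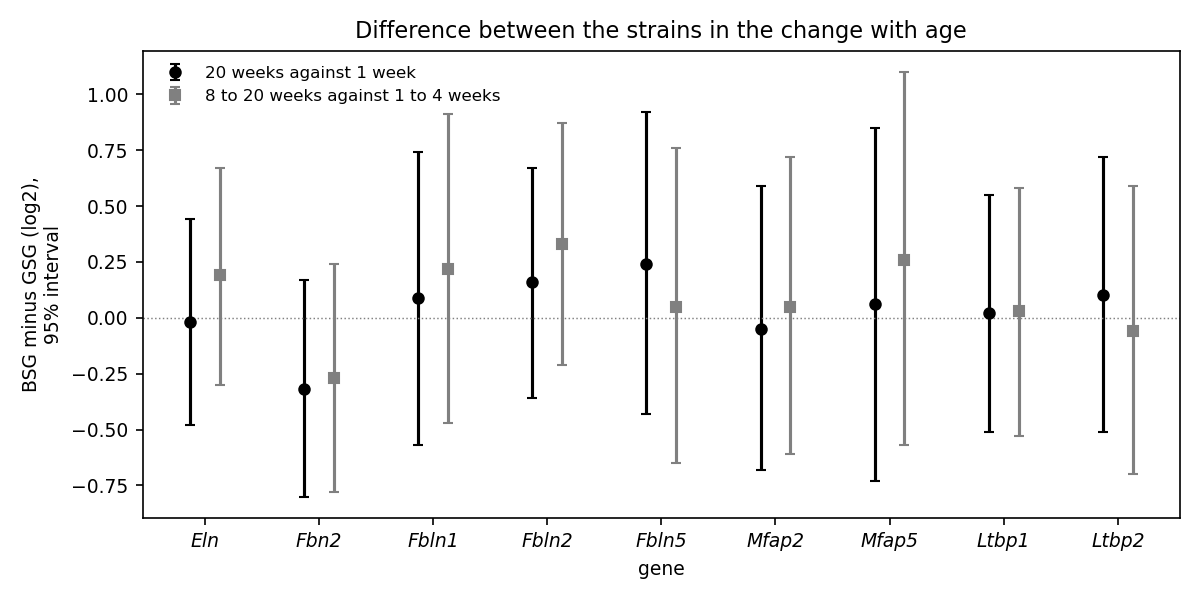
BSG minus GSG difference in the log2 change with age (vertical axis) with its 95% interval for the 9 members (horizontal axis). Circles are 20 weeks against 1 week and squares the mean of 8 to 20 weeks against the mean of 1 to 4 weeks, and every interval holds 0.

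The members fell into those that varied together and those that did not. Over the 36 fitted mouse levels, centred within loops, Pearson's r of the 36 pairs of members had a median of 0.23 and ran from -0.47 to 0.83, and 22 pairs were above 0. The highest was 0.83 for *Fbln5* and *Mfap2*, followed by 0.73 for *Fbln1* and *Mfap2* and 0.68 for *Fbn2* and *Mfap2*. *Ltbp2* was at -0.47 with *Fbln1* and -0.41 with *Mfap2*. *Eln* reached 0.47 with *Mfap2* and 0.24 with *Mfap5*. The points share arrays within a loop, so these values are a description. They include the 1 week mice, so members that share a fall since 1 week correlate through that fall. The correlations are therefore not a result separate from the falls.

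**Figure D4:**
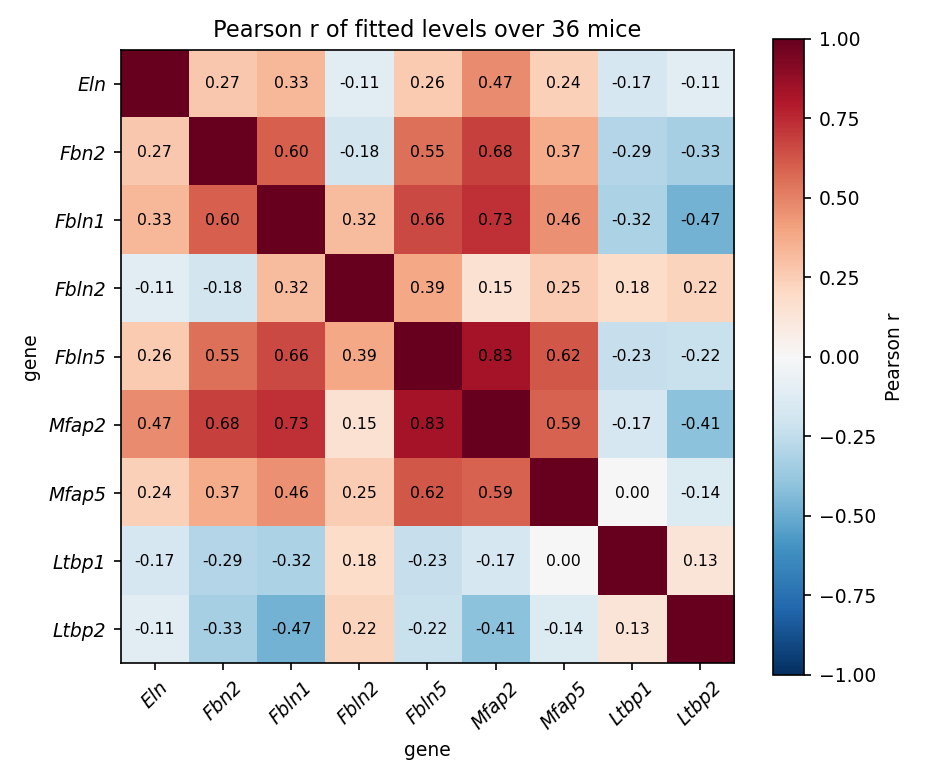
Pearson's r of the fitted log2 levels of each pair of members (both axes) over 36 mice, centred within loops. *Fbln1*, *Fbln5*, *Mfap2*, *Mfap5* and *Fbn2* form a block of values from 0.37 to 0.83, and *Ltbp1* and *Ltbp2* are at or below 0 with each of them.

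The genes outside the set whose profile was most like the mean of the 9 members over the 36 mice were *Slc29a1*, *Ccnd3*, *Tspan6*, *Dlk1*, *Col6a1*, *Heyl*, *Crtap* and *Cdkn1c*, at an r of 0.89, 0.88, 0.84, 0.83, 0.83, 0.82, 0.82 and 0.82. *Slc29a1*, an equilibrative nucleoside transporter, stood at -1.02 in BSG and -0.80 in GSG at 20 weeks against 1 week (limma, adjusted p = 0.0349 and 0.065). *Cdkn1c*, an imprinted inhibitor of cell division, fell in both strains, with values of -1.94 and -2.12 (limma, adjusted p = 0.0156 and 0.00249). *Col6a1*, a chain of the microfibrillar collagen VI of muscle, was at -0.99 and -0.93 (limma, adjusted p = 0.141 and 0.115), and *Crtap*, which takes part in collagen prolyl hydroxylation, was at -0.77 and -1 (limma, adjusted p = 0.2 and 0.0377).

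Other genes of elastic fibre biology did not pass the test at 20 weeks against 1 week. Of 4 measured lysyl oxidases, which cross-link elastin and collagen, 0 passed in either strain, with medians of -0.26 in BSG and -0.13 in GSG. *Loxl1*, the lysyl oxidase-like enzyme tied to elastin, was at -0.69 ± 0.26 in BSG and -0.41 ± 0.26 in GSG (limma, adjusted p = 0.272 and 0.552). Among 3 associated glycoproteins 0 passed, and *Tnxb*, for tenascin-X, was at -0.75 ± 0.31 in both strains (limma, adjusted p = 0.313 and 0.206). Of 7 other genes of the latent TGF-beta system 0 passed, with medians of 0.15 and -0.04. *Ltbp3*, a further binding protein of latent TGF-beta, was at -0.63 ± 0.27 in BSG and -0.53 ± 0.27 in GSG (limma, adjusted p = 0.359 and 0.392). The 7 measured receptor genes gave 0 calls in either strain.

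Of 15 measured enzymes that can degrade elastin and their inhibitors, 0 passed in BSG and 2 rose in GSG. Of all oligonucleotides, 0.431% were called higher in BSG and 0.713% in GSG. The medians of the 15 genes were 0.13 in BSG and 0.10 in GSG, with 6 and 5 genes below 0. *Ctss*, for the elastolytic cathepsin S of macrophages, was at 1.22 ± 0.43 in BSG and 1.55 ± 0.43 in GSG (limma, adjusted p = 0.208 and 0.0434). *Timp1*, an inhibitor of metalloproteinases, was at 0.67 ± 0.38 in BSG and 1.33 ± 0.38 in GSG (limma, adjusted p = 0.53 and 0.0476). *Mmp2*, a gelatinase that can cleave elastin, was at -0.56 ± 0.23 and -0.78 ± 0.23 (limma, adjusted p = 0.314 and 0.0575).

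The fibrillar collagens, the other main fibre of the matrix, had 7 measured genes. In BSG 1 of them fell and the median was -0.71, and in GSG 2 fell and the median was -0.87. Of all oligonucleotides, 0.849% were called lower in BSG and 3.03% in GSG, with medians of -0.02 and -0.01. *Col1a1*, a chain of type I collagen, fell in both strains and stood at -1.66 ± 0.37 in BSG and -2.13 ± 0.37 in GSG (limma, adjusted p = 0.0237 and 0.000998). *Col11a1* was at -0.98 ± 0.29 in BSG and fell in GSG, to -2.09 ± 0.29 (limma, adjusted p = 0.0988 and 9.44e-05). *Col3a1*, of type III collagen, was at 0.58 ± 0.40 and 1.02 ± 0.40 (limma, adjusted p = 0.69 and 0.191). Of 5 small leucine-rich proteoglycans 0 passed, with medians of 0.24 in BSG and -0.39 in GSG.

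**Figure D5:**
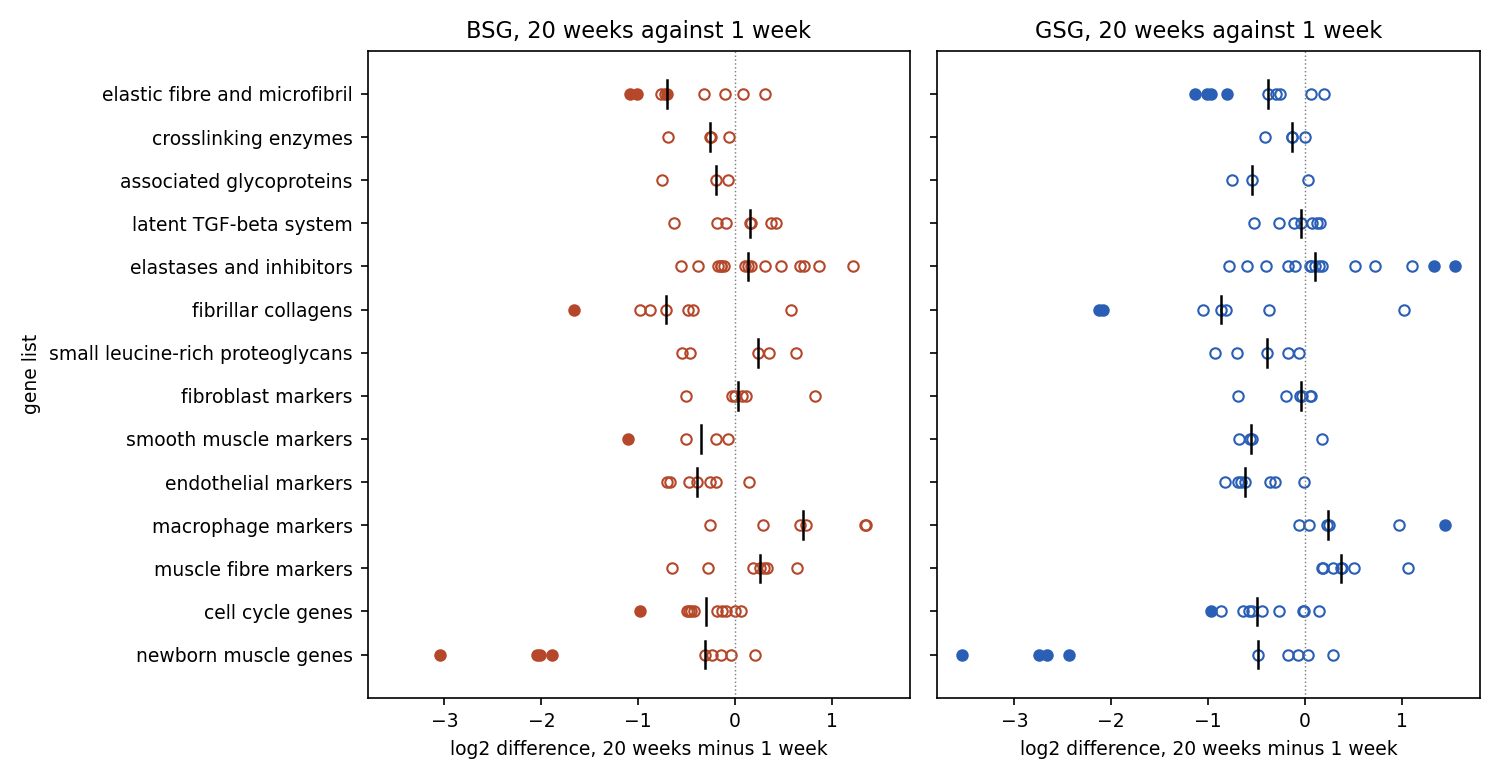
Log2 difference of 20 weeks minus 1 week (horizontal axis) of the genes in each list (rows), for BSG on the left and GSG on the right. Filled circles passed an adjusted p of 0.05 (limma), open circles did not, and the black bar is the median of the list, which is -0.70 in BSG and -0.38 in GSG for the elastic fibre and microfibril genes.

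Markers of other cell types of the muscle were read in the same mice. Averaged over the 9 members, the 20 week mice stood at -0.64 and -0.31 (BSG) and at -0.45 and -0.57 (GSG). In the same mice, 7 endothelial markers averaged -0.39 and -0.34 in BSG and -0.46 and -0.54 in GSG, and 4 smooth muscle markers averaged -0.67 and -0.28 in BSG and -0.23 and -0.58 in GSG. *Smtn*, of contractile smooth muscle, fell in BSG, to -1.11 ± 0.22, and was at -0.68 ± 0.22 in GSG (limma, adjusted p = 0.0125 and 0.0933). The 6 genes taken as fibroblast markers averaged 0.41 and -0.26 in BSG and -0.19 and -0.10 in GSG, with 0 calls in either strain. The largest estimates among them were those of *Tcf4*, 0.82 ± 0.37 in BSG and -0.69 ± 0.37 in GSG (limma, adjusted p = 0.387 and 0.425). Whether *Tcf4* marks fibroblasts in this muscle was not tested, and the averages of the list include it. Next in size came *Thy1* for BSG, at -0.51 ± 0.17, and *Pdgfra* for GSG, at -0.20 ± 0.25. The list median, which leans less on a single gene, was 0.04 for BSG and -0.04 for GSG. Tenocyte markers, 4 in number, averaged -0.29 and -0.12 in BSG and -0.15 and -0.46 in GSG. Of these, *Tnmd*, for tenomodulin of tendon, was at -1.30 ± 0.41 in BSG and fell in GSG, to -1.98 ± 0.41 (limma, adjusted p = 0.129 and 0.00518). The others did not follow *Tnmd*, with *Thbs4* at 0.33 and 0.50 and *Chad* at 0.05 and 0.34. The median estimate of the 4 was 0.08 in BSG and 0.13 in GSG, with 1 and 2 genes below 0. The 10 cell cycle genes averaged -0.25 and -0.39 in BSG and -0.42 and -0.42 in GSG. The 7 markers of the muscle fibre, the labelled tissue, averaged -0.12 and 0.35 in BSG and 0.52 and 0.33 in GSG, and 6 macrophage markers averaged 1.09 and 0.29 in BSG and 0.31 and 0.64 in GSG. The part of these cell types in the falls of the elastic fibre and microfibril genes was not tested.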

How the data were processed

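Gene expression in quadriceps muscle of BSG and GSG mice was measured on 36 arrays of long oligonucleotides printed in duplicate. The authors amplified RNA linearly and labelled it with Cy3 or Cy5. They normalised within and between arrays in R (smida, all.norm) and deposited what were taken here as log2 ratios. Base and direction were not stated. Cy5 over Cy3 was assumed, and log2 because values reach -12.02 and 11.52, too far apart for natural logarithms of scanner signals. The number of arrays limits the precision. Array medians lay between -0.062 and 0.037 and 0 values were missing, so neither a filter nor further normalisation was applied.

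Of 16416 spots, pairs were averaged, and 80 pairs of the *Gapdh* control were taken as 1, giving 8129 oligonucleotides, of which 6752 have 1 gene symbol, 7 several and 1370 none. Ages were fitted with limma (version 3.58.1, R 4.3.3) over all 36 arrays, with 8 parameters per strain and 20 residual degrees of freedom, and Benjamini-Hochberg adjustment over all oligonucleotides. The Hotelling tests were written after the equations of the study, with 3 and 30 degrees of freedom for the temporal test. For the test without time order the 8 fitted ages were compared, with 8 and 20 degrees of freedom, which departs from the formula of the study, which counts all 9 time points. Scripts were tested on simulated data. Loops of different strains share only a number, so the loop was a block within each strain. Alternatives were a replicate block, a dye term, centred or scaled arrays, each loop left out, spots as separate observations, no moderation and, chosen after seeing the data, arrays with discordant spots left out. The limma F test over 8 ages and the BSG minus GSG difference at 20 weeks were added later too.

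The members and the 16 other gene lists were chosen with earlier results of these data known. The text names every measured member, up to 3 genes per other list by adjusted p, and the 8 genes most like the mean member profile. Newborn muscle genes served only to look at the direction. For the figures matplotlib (version 3.10.9) was used under Python (version 3.11.15).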

Additional observations from a re-analysis of the deposited data

How the results depend on the processing

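At 20 weeks against 1 week, 3 members were called in BSG and 4 in GSG, where 69 and 246 of all 8129 oligonucleotides were called lower. With 1 level per mouse and the loop as a fixed replicate block the counts were 0 and 2, and with all arrays brought to 1 spread 0 and 1. Over all oligonucleotides the lower calls dropped too, to 13 and 115 with 1 level per mouse and to 9 and 80 with 1 spread. Scaling lowered the size of the estimates as well, for *Mfap2* to -0.73 in BSG and -0.71 in GSG. Without the 9 arrays whose duplicate spots correlated under 0.3, a choice made after seeing the data, the BSG count was 0 and the GSG count 4. In that fit 15 of all oligonucleotides were lower in BSG and 193 in GSG. With each loop left out in turn the count ran from 0 to 2 in BSG and from 0 to 2 in GSG, and over all oligonucleotides the BSG count without loop 1 of BSG was 1 lower and 0 higher, against 69 and 35 with all loops. Only uncalled values changed sign. Leaving out 1 loop of the strain gave *Fbln2* values of -0.36 and 0.16 in BSG and of -0.62 and 0.10 in GSG, and *Ltbp1* values of -0.01 and 0.16 in BSG and of -0.05 and 0.17 in GSG. In GSG, *Eln* lay at -0.67 and 0.07 and *Fbn2* at -0.78 and 0.02, the upper value being without loop 2. For adult against young mice, 1 level per mouse gave 3 calls in BSG and 3 in GSG in place of 0, with the loop as a replicate block. In the F test over ages, the 2 spots as separate observations gave 2 calls in BSG and 1 in GSG, and the dye term gave 1 in GSG. The strain tests stayed at 0 members under each alternative run. For the 7 calls at 20 weeks the alternatives gave 84 values, of which 84 kept the direction and 37 lost the call. For the estimates not called they gave 132 values, of which 4 gained a call and 6 changed sign. The loop as a random replicate block gave 4 calls in each strain, at a correlation of 0.107, where 119 of all oligonucleotides were lower in BSG and 372 in GSG. The mean over several oligonucleotides of a gene did not arise, since each member had 1. The number of arrays, 2 per comparison of neighbouring ages and strain, limits the precision, as does the agreement of duplicate spots, which was 0.16 for *Ltbp1*, 0.21 for *Eln* and 0.31 for *Fbn2*.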

Other observations

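No fat cell marker passed the test in either strain. The 3 measured adipocyte markers averaged 0.77 and 0.25 in the BSG mice of 20 weeks and -0.11 and 0 in the GSG mice. *Adipoq*, for adiponectin, was at 0.67 ± 0.18 in BSG and 0.18 ± 0.18 in GSG (limma, adjusted p = 0.0625 and 0.772). Of the macrophage markers, *Cd68* rose in GSG by 1.45 ± 0.37 and was at 0.67 ± 0.37 in BSG (limma, adjusted p = 0.0248 and 0.521), and *Adgre1*, for F4/80, was at 1.34 ± 0.40 in BSG and 0.97 ± 0.40 in GSG (limma, adjusted p = 0.109 and 0.221).

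Around a closed loop the 9 ratios of an oligonucleotide should sum to 0 apart from error and dye effects. For *Mfap5* the sums were 1.2 and 1.16 in the BSG loops and 3.22 and 2.39 in the GSG loops, where the SD over all oligonucleotides was 1.54 in the median loop.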
